A study of Mus musculus with 8 samples.

Results

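Transcripts of 36 genes typical of pancreatic acinar cells were followed in RNA sequencing libraries of macrophages sorted from mouse islets. The 36 genes were chosen by name as digestive enzymes, other secretory and granule proteins, and transcription factors of acinar cells, and each name was found once among the 48440 genes of the deposited count table. The islets came from wild-type male C57BL/6J mice, and the sorted cells were CD11b and F4/80 double-positive. One group of libraries came from mice on a high-fat diet (HFD; 45% fat, 20% protein and 35% carbohydrate, at 19.67 kJ/g). The other came from mice on chow (8% fat, 21% protein and 71% carbohydrate, at 10.88 kJ/g). Both diets were given for 8 weeks from an age of 8 weeks, so all animals were 16 weeks old. There were 4 libraries per diet, HFD replicates 5 to 8 and chow replicates 1 to 4. Every library pooled 2 mice and counts as 1 replicate. Each was amplified from 500 pg of RNA, and no agent other than the diet separated the groups.

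Acinar cells make up most of the exocrine pancreas, the tissue in which the islets lie. They store digestive enzymes, many as inactive zymogens, in granules and release them through the ducts into the gut, where trypsin activates the other proteases. The transcription factor PTF1A, working with RBPJL, binds sites that join an E-box to an RBPJ-type sequence and drives enzyme genes, while MIST1 (Bhlha15) and NR5A2 also act in mature acinar cells. The enzyme genes serve as markers of acinar cells, which the sort was not meant to keep. In bulk libraries, fewer cells of a type and less RNA per cell cannot be told apart.

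Sequences bear on which of the trypsin-family genes can be counted apart. The first 90 coding bases of Prss2, the trypsinogen member with the most counts, are shown in lower case, with the same stretch of its relatives under it. These genes lie in one cluster on chromosome 6 (GRCm38 coordinates and sequences from GENCODE M21). Capitals mark bases that differ from Prss2 or are added relative to it.
Prss2: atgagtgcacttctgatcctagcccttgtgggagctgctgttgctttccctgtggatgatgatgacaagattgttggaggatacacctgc
Prss1: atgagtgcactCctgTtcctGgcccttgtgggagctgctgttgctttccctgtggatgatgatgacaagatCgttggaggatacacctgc
Prss3: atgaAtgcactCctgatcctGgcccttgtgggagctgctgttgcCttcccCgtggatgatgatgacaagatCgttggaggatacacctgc
Try4: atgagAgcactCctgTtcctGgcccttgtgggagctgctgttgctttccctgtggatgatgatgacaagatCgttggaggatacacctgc
Try5: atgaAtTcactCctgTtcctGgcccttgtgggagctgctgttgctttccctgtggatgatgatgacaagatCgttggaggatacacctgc
2210010C04Rik: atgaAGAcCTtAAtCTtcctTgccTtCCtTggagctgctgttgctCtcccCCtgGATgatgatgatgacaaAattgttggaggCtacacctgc

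Prss1, Prss3, Try4 and Try5 differ from Prss2 by 4 to 6 bases in this stretch, and over the whole coding sequence of 738 bases they are 89.6%, 88.6%, 91.7% and 90.4% identical to it. Try4 and Try5 are 97.4% identical to each other, and Prss1 and Prss3 are 96.3% identical. The gene 2210010C04Rik, which is not among the 36, differs by 22 bases in the stretch, 3 of them added, and is 75.0% identical to Prss2 over its length. Of all windows of 50 bases in each transcript, 54.9% in Prss1, 66.1% in Prss3, 65.6% in Try4 and 53.9% in Try5 also occur in a transcript of another gene, against 7.83% in Prss2 and 0% in 2210010C04Rik. Counts of Prss1, Prss3, Try4 and Try5 are therefore uncertain. Shared windows also touch Ptf1a (35.4%, with Ptf1aos), Cela3b (33.2%, with Cela3a), Klk1 (28.4%, mostly with other kallikrein genes) and Cela2a (25.6%, with Ctrc). The annotated exons of Cela2a and Ctrc share 305 bases on the same strand, and both overlap Casp9 by 94 bases on the opposite strand. Those of Ptf1a and Rbpjl overlap Ptf1aos and Matn4, also on the opposite strand. The labels state no strand for the counting, so reads of such pairs cannot be told apart. Windows were read in a single transcript per gene, the longest protein-coding one. On that basis 23 of the 36 members have no shared window. Among them is Ctrc, whose annotated exons still overlap those of Cela2a. Reg1, Rbpjl, Bhlha15 and Nr5a2 have 3.74%, 0.997%, 0.697% and 0.0640%.

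The bases before the start sites of the members were also read. Their part in the differences between libraries was not tested. RefSeq promoter sequence (GRCm38.p6) was found for 29 of the 36 genes, in 30 windows of the 250 bases before the start. The RBPJ-type motif TGGGAA was present on either strand in 18 of the 30 windows (60.0%), against 21.6% of 32851 such windows over all genes. The E-box CACCTG was in 18 of 30 (60.0%, against 17.2%), the E-box CAGCTG in 5 of 30 (16.7%, against 13.0%) and the NR5A-type motif AAGGTCA in 4 of 30 (13.3%, against 4.08%). TGGGAA stood in one window with either E-box in 10 of 30 (33.3%, against 6.31%). No motif was required to be free of overlap with another, and a match describes letters, not bound sites. Windows of 3 abundant members that hold TGGGAA with an E-box are printed with all matches to the 4 motifs in capitals, for Ctrb1 at chr8:111691011-111691260, Ctrl at chr8:105933863-105934112 and Cel at chr2:28563404-28563653, each on the minus strand.
Ctrb1: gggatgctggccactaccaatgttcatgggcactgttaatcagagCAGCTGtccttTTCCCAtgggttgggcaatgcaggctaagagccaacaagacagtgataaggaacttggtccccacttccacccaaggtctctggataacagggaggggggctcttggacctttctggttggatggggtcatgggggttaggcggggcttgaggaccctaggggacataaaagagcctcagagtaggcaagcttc
Ctrl: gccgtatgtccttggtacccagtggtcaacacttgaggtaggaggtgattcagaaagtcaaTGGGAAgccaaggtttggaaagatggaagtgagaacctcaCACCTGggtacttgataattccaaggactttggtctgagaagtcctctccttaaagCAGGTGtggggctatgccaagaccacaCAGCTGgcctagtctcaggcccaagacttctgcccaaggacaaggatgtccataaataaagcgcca
Cel: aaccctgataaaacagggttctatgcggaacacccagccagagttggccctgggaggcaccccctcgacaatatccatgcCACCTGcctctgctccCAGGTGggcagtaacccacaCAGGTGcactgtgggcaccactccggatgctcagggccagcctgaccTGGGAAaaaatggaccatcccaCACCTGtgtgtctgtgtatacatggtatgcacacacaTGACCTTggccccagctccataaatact

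Library totals ranged from 4288666 to 6391250 counts. The macrophage markers Adgre1, Itgam, Csf1r, Cd68, Fcgr1 and Mertk summed to 1869 to 2370 counts-per-million (CPM) in HFD libraries and 2024 to 2505 CPM in chow libraries. CPM here are counts divided by the library total after TMM scaling, and 3 counts correspond to 0.465 to 0.702 CPM, the level that a count of 0 allows in a single library. Values under that floor rest on 1 or 2 counts. Intervals and floors cover counting error only, because amplified reads are not independent molecules. Across all 10129 genes tested for diet, edgeR's quasi-likelihood test called 0 at an adjusted p of 0.05 (percent called 0), with 542 at an unadjusted p under 0.05 (5.35%), while DESeq2 called 28 of the 9434 genes to which it gave an adjusted p (0.297%).

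Acinar transcripts were present at very different levels from library to library, and the libraries with the most came from both diets. The 36 genes summed to 157, 70.8, 2427 and 54.4 CPM in HFD replicates 5, 6, 7 and 8, against 1.34, 5.11, 2142 and 4604 CPM in chow replicates 1, 2, 3 and 4. Chow replicates 3 and 4 and HFD replicate 7 thus stood far above the other libraries, and chow replicates 1 and 2 lay below every HFD library. The members took 0.257% of all counts in HFD replicate 7 (exact Clopper-Pearson 95% interval 0.252% to 0.261%). In chow replicate 4 they took 0.459% (0.453% to 0.465%), and in chow replicate 1 they took 0.000128% (4.7e-05% to 0.00028%), which is 6 of 4670066 counts. Of all 43247 counts of the members, HFD replicate 7 held 26.9%, chow replicate 4 held 45.5% and chow replicate 3 held 24.1%. Means were 677 ± 1167 CPM in HFD and 1688 ± 2190 CPM in chow (SD, n = 4), and medians were 114 and 1074 CPM. The ratio of the means, HFD over chow, was 0.401. It was 0.946 without chow replicate 4 and 0.0558 without HFD replicate 7, so 1 library on either side moved it by over 1.5 times.

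**Figure D1:**
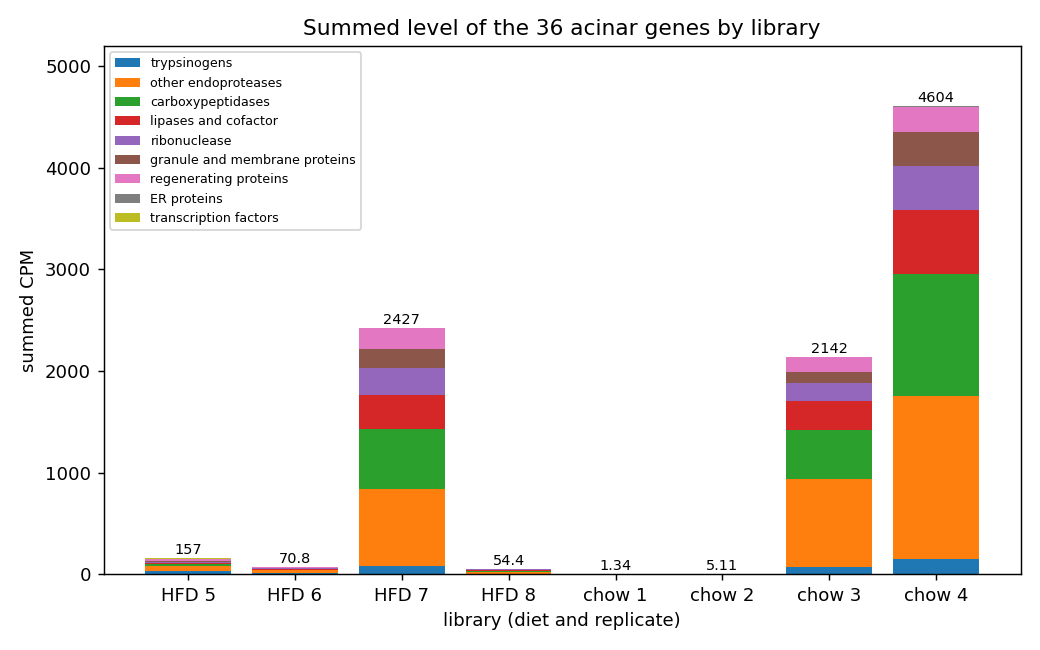
Summed level of the 36 acinar genes in each library, in TMM-scaled CPM (linear axis), with HFD replicates 5 to 8 on the left and chow replicates 1 to 4 on the right; colours stack the gene groups and the value printed on each bar is the sum. HFD replicate 7 (2427 CPM) and chow replicates 3 and 4 (2142 and 4604 CPM) stand above the other libraries, which hold 1.34 to 157 CPM.

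More members were seen where the sum was high, but not in proportion. At least 3 counts were found for 19, 12, 27 and 12 members in HFD replicates 5 to 8, against 1, 2, 24 and 29 in chow replicates 1 to 4. Over all libraries 33 of the 36 were above 0. The trypsinogens Prss1 and Prss3 and the transcription factor Ptf1a had no count in any library. The deepest library, chow replicate 2 with 6391250 counts, held 33 counts of members, and the shallowest, chow replicate 4 with 4288666, held the most, 19683. HFD replicate 7 and chow replicates 3 and 4 were the 3 highest libraries for 23 of the 36 genes, and chow replicate 4 was the highest for 24.

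**Figure D2:**
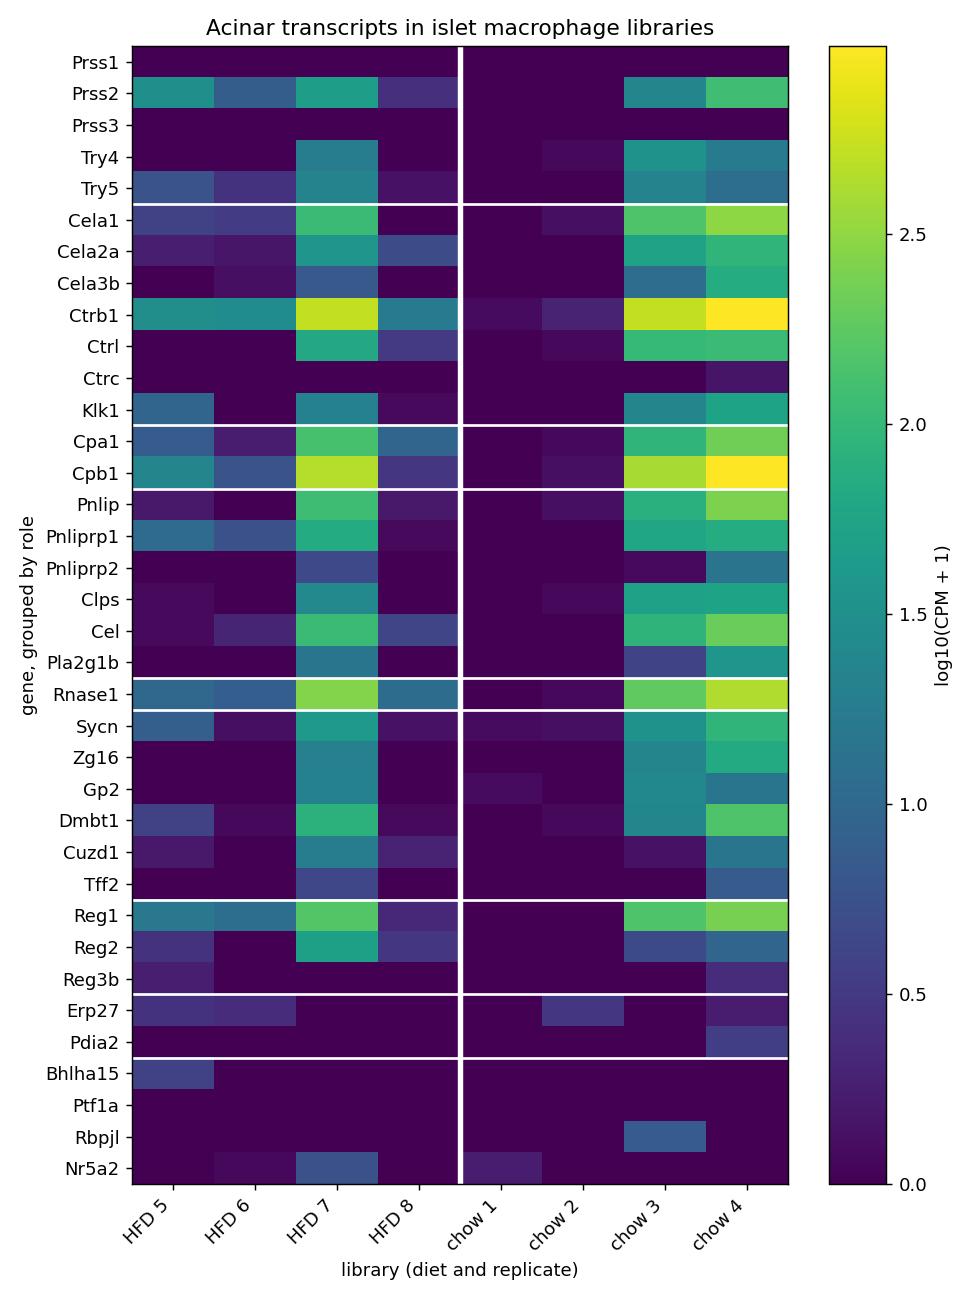
Level of each of the 36 genes (rows, grouped by role between white lines) in each library (columns, HFD left and chow right), coloured by log10(CPM + 1). Most enzyme rows are bright in HFD replicate 7 and chow replicates 3 and 4, while the transcription factors at the bottom stay at or below 6.17 CPM in every library.

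Among the trypsinogens, precursors of trypsin, Prss2 (chromosome 6, 41521787 to 41525079) had 29.9, 6.72, 46.8 and 1.59 CPM in HFD replicates 5 to 8, against 0, 0, 22.4 and 118 CPM in chow replicates 1 to 4. Both diets thus held low and high libraries, and HFD replicate 5 was above chow replicate 3. Try5 had 4.91, 1.72, 20.9 and 0.399 CPM in HFD libraries and 0, 0, 20.6 and 10.99 CPM in chow libraries. Its near-identical neighbour Try4 was seen in HFD replicate 7 alone among HFD libraries, at 17.1 CPM, and in chow had 0, 0.155, 32.5 and 16.1 CPM. The groups overlapped for each of these genes.

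The chymotrypsinogen gene Ctrb1 (chromosome 8, 111686519 to 111691010) was the most abundant member. It had 29.3, 27.9, 524 and 16.5 CPM in HFD replicates 5 to 8, against 0.223, 0.929, 525 and 985 CPM in chow replicates 1 to 4. HFD replicate 7 and chow replicate 3 were level, although their diets differed. Ctrl, which encodes a chymotrypsin-like protease, had 0, 0, 62.6 and 2.19 CPM in HFD libraries and 0, 0.155, 99.6 and 109 CPM in chow libraries. Ctrc, the gene of chymotrypsin C, had 2 counts in chow replicate 4 and none elsewhere. Its model shares exons with Cela2a, so this low value cannot be read on its own.

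Elastases were led by Cela1 (chromosome 15, 100674421 to 100687921). Cela1 had 2.95, 2.41, 109 and 0 CPM in HFD replicates 5 to 8, against 0, 0.310, 148 and 304 CPM in chow replicates 1 to 4. Cela2a had 0.786, 0.517, 35.7 and 3.99 CPM in HFD libraries and 0, 0, 52.3 and 88.9 CPM in chow libraries. Cela3b reached 5.84 CPM in HFD replicate 7 and 69.9 CPM in chow replicate 4. In all 3 genes the highest HFD library lay below chow replicates 3 and 4, and the lowest values of each diet were at or near 0. Klk1, tissue kallikrein, which releases kinins, had 8.45, 0, 19.8 and 0.199 CPM in HFD libraries and 0, 0, 22.4 and 54.3 CPM in chow libraries.

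The carboxypeptidases remove residues from the end of peptide chains. Cpb1 (chromosome 3, 20248264 to 20275733), specific for basic residues, had 21.8, 4.82, 456 and 1.99 CPM in HFD replicates 5 to 8, against 0, 0.310, 398 and 979 CPM in chow replicates 1 to 4. Cpa1 (chromosome 6, 30639218 to 30645363) had 6.48, 0.689, 130.2 and 8.37 CPM in HFD libraries and 0, 0.155, 90.3 and 218 CPM in chow libraries. HFD replicate 7 was above chow replicate 3 for both genes and below chow replicate 4. Rnase1, the secreted pancreatic ribonuclease, had 9.04, 6.89, 274 and 10.4 CPM in HFD libraries, against 0, 0.155, 182 and 436 CPM in chow libraries. HFD replicates 5, 6 and 8 were close together for Rnase1 and above chow replicates 1 and 2.

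Fat digestion was represented by 6 genes. Pnlip (chromosome 19, 58652498 to 58681788), the main triglyceride lipase, had 0.589, 0, 114 and 0.598 CPM in HFD replicates 5 to 8, against 0, 0.310, 78.8 and 253 CPM in chow replicates 1 to 4. Cel, the bile salt-dependent lipase, had 0.196, 1.03, 108 and 3.19 CPM in HFD libraries and 0, 0, 87.2 and 202 CPM in chow libraries. Both genes were near the floor outside the 3 high libraries, except for Cel in HFD replicate 8, with 16 counts. Pnliprp1, a lipase-related protein, had 10.02, 4.48, 67.8 and 0.199 CPM in HFD libraries and 0, 0, 58.4 and 70.6 CPM in chow libraries, so its 3 highest libraries were close together. Clps, the gene of colipase, which anchors pancreatic lipase to fat droplets, reached 24.4 CPM in HFD replicate 7, against 51.0 and 53.3 CPM in chow replicates 3 and 4. Pla2g1b, a phospholipase A2, and Pnliprp2 reached 13.6 and 3.55 CPM in HFD replicate 7, against 35.1 and 13.3 CPM in chow replicate 4.

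Proteins of the zymogen granule and other secreted proteins formed a group of 6 genes. Dmbt1, a secreted scavenger receptor-like protein, had 2.75, 0.172, 83.3 and 0.199 CPM in HFD replicates 5 to 8, against 0, 0.155, 22.8 and 145 CPM in chow replicates 1 to 4. Sycn, the gene of syncollin, a granule membrane-associated protein, had 7.07, 0.345, 40.5 and 0.399 CPM in HFD libraries and 0.223, 0.310, 33.5 and 90.3 CPM in chow libraries. HFD replicate 7 lay between chow replicates 3 and 4 for both. Zg16, a granule lectin, and Gp2, the main glycoprotein of the granule membrane, were at 19.0 and 19.8 CPM in HFD replicate 7 and at 0 in the other HFD libraries. In chow replicates 3 and 4 Zg16 had 22.2 and 66.0 CPM and Gp2 had 24.1 and 13.6 CPM. Cuzd1 reached 16.9 CPM in HFD replicate 7, against 0.411 and 13.6 CPM in chow replicates 3 and 4. Tff2, a trefoil peptide gene, had 3.34 CPM in HFD replicate 7, against 0 and 6.32 CPM in chow replicates 3 and 4, so both genes were low in chow replicate 3.

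The regenerating proteins are small secreted lectin-like proteins. Reg1 (chromosome 6, 78422711 to 78428667) had 14.9, 11.2, 156 and 1.196 CPM in HFD replicates 5 to 8, against 0, 0, 146 and 238 CPM in chow replicates 1 to 4. Reg2 departed from this order, with 1.77, 0, 49.3 and 1.99 CPM in HFD libraries and 0, 0, 3.70 and 8.42 CPM in chow libraries. HFD replicate 7 was thus the highest library for Reg2, and of the 36 genes 4 were highest there. Reg3b had 0.786 CPM in HFD replicate 5 and 1.40 CPM in chow replicate 4 and no count elsewhere.

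Acinar transcription factors were all but unseen beside the enzymes. Ptf1a, with its shared windows, had no count in any library. Rbpjl, its partner, had 30 counts (6.17 CPM) in chow replicate 3 and none elsewhere, although chow replicate 4 held more of most enzymes. Bhlha15, which encodes MIST1, had 15 counts (2.95 CPM) in HFD replicate 5 and none elsewhere. Nr5a2 had 0, 0.172, 4.59 and 0 CPM in HFD libraries and 0.669, 0, 0 and 0 CPM in chow libraries. The 4 genes summed to 0 CPM in chow replicate 4, where the enzymes were highest and the floor was 0.702 CPM per gene. The 2 proteins of the endoplasmic reticulum did not share one pattern either. Erp27 had 1.77, 1.38, 0 and 0 CPM in HFD libraries and 0, 2.01, 0 and 0.702 CPM in chow libraries, with no count in 2 of the 3 acinar-rich libraries. Pdia2, a pancreatic protein disulfide isomerase, had 11 counts in chow replicate 4 and none elsewhere.

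Levels can be compared between genes only per length, and on that scale Ctrb1 led as well. Averaged over the 8 libraries, Ctrb1 had 300.3 CPM per kilobase of annotated exon, followed by Rnase1 (116), Reg1 (78.5), Cpb1 (70.9), Sycn (38.8) and Prss2 (34.6). Cpb1 dropped below Rnase1 and Reg1 on this scale because its annotated exons are longer (3284 bases, against 992 and 904). Dmbt1, with 7057 bases of exon, had 4.51 CPM per kilobase. The transcription factors detected had 0.105 to 0.135 CPM per kilobase. Since 3 libraries hold most of each mean, the order was also read in single libraries: Ctrb1 had 597 CPM per kilobase in HFD replicate 7, against 598 and 1122 CPM per kilobase in chow replicates 3 and 4, and Rnase1 was second in each, at 276, 184 and 440.

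The make-up of the acinar count was alike in the 3 libraries that held most of it. Across the 32 members with at least 3 counts in some library, Spearman's rank correlation of counts was 0.92 between HFD replicate 7 and chow replicate 3, 0.92 between HFD replicate 7 and chow replicate 4, and 0.91 between chow replicates 3 and 4. These are correlations across genes, which share a library and are not independent, and are given as a description. Between HFD replicate 5, 6 or 8 and any other of the 6 libraries with over 100 counts of members, the values were 0.49 to 0.78. HFD replicates 5, 6 and 8 held 800, 411 and 273 counts of members. HFD replicate 7 and chow replicates 3 and 4 held 11627, 10414 and 19683. Few counts and ties at 0 can lower a rank correlation, and their part was not tested. Ctrb1 made up 18.6% (16.0% to 21.5%), 39.4% (34.7% to 44.3%), 21.6% (20.8% to 22.3%) and 30.4% (25.0% to 36.2%) of the acinar count in HFD replicates 5 to 8. In chow replicates 3 and 4 it made up 24.5% (23.7% to 25.4%) and 21.4% (20.8% to 22.0%).

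Single genes departed from a common make-up by more than counting error. Prss2 was 19.0% (16.3% to 21.9%) of the acinar count in HFD replicate 5, 9.49% (6.83% to 12.7%) in HFD replicate 6 and 1.93% (1.68% to 2.19%) in HFD replicate 7, against 1.05% (0.860% to 1.26%) and 2.57% (2.35% to 2.80%) in chow replicates 3 and 4. Cpb1 was 18.8% (18.1% to 19.5%) in HFD replicate 7 but 3.66% (1.77% to 6.63%) in HFD replicate 8, against 18.6% (17.8% to 19.4%) and 21.3% (20.7% to 21.9%) in chow replicates 3 and 4. Cpa1 was 15.4% (11.3% to 20.2%) in HFD replicate 8, against 4.22% and 4.74% in chow replicates 3 and 4. Prss2 was therefore high in the mixture of HFD replicates 5 and 6, and Cpa1 high and Cpb1 low in that of HFD replicate 8. The acinar counts of those libraries were 800, 411 and 273. What set these shares was not tested.

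**Figure D3:**
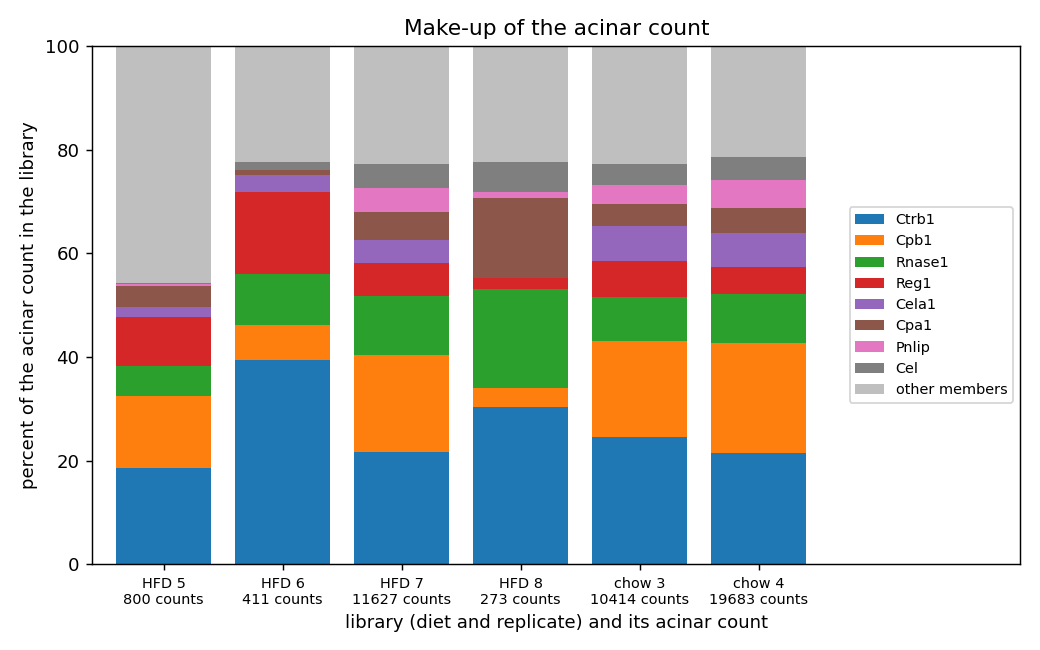
Make-up of the acinar count in the 6 libraries with more than 100 counts of members, HFD left and chow right; each bar shows the percent of the library's acinar count taken by the 8 members with the highest mean CPM and by all others together. HFD replicate 7 and chow replicates 3 and 4 have similar bars, with Ctrb1 at 21.6%, 24.5% and 21.4%, while HFD replicate 6 (39.4%) and HFD replicate 8 (30.4%) hold more Ctrb1 and less Cpb1.

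None of the 36 genes was called between HFD and chow, set beside a percent called of 0 over all genes. The low-count filter kept 15 members, those with enough counts in at least 4 of the 8 libraries, and the other 21 were not tested. Of the 15, 0 had an unadjusted p under 0.05 in edgeR, and 0 were called by DESeq2 (adjusted p = 0.95 to 0.99). In edgeR all 15 had negative log2 fold changes, HFD over chow, with a median of -1.34, against -0.02 over all genes tested. Standard errors (SE) were derived as the size of the estimate over the square root of F, the statistic of the edgeR test. Those of the 15 members, 1.53 to 2.58, exceeded the size of every estimate, which restates a small F. Their median was 2.25, against 0.75 over all genes. Cela1 had the most negative estimate, -1.98 (SE 2.50, edgeR adjusted p = 0.99), and Try5 the least, -0.18 (SE 1.53, edgeR adjusted p = 0.99). Cpb1 had -1.51 (SE 2.52) and Ctrb1 -1.34 (SE 2.22), each with an edgeR adjusted p of 0.99. The 4 HFD and 4 chow libraries overlapped for each of the 15, whereas 3.4% of all tested genes did not overlap.

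The sign of these estimates changed with single libraries left out and with the tool. Without chow replicate 4, 8 of 16 tested members were higher and 8 lower in HFD, with a median of -0.02. Without HFD replicate 7 all 16 were lower, with a median of -3.92. With limma-voom and quality weights 8 of 15 were higher in HFD, with a median of 0.17. In 12 of the 15 genes HFD replicates 5, 6 and 8 were each above chow replicates 1 and 2. Chow replicates 3 and 4 were higher in most genes. The filter itself favours this pattern. It kept genes with enough counts in at least 4 libraries, and chow replicates 1 and 2 held 6 and 33 counts of members. Some of these values also rest on 1 or 2 counts, so the 12 genes are not read as a result. No member passed in any of the fits above, so no direction is given for the diet.

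**Figure D4:**
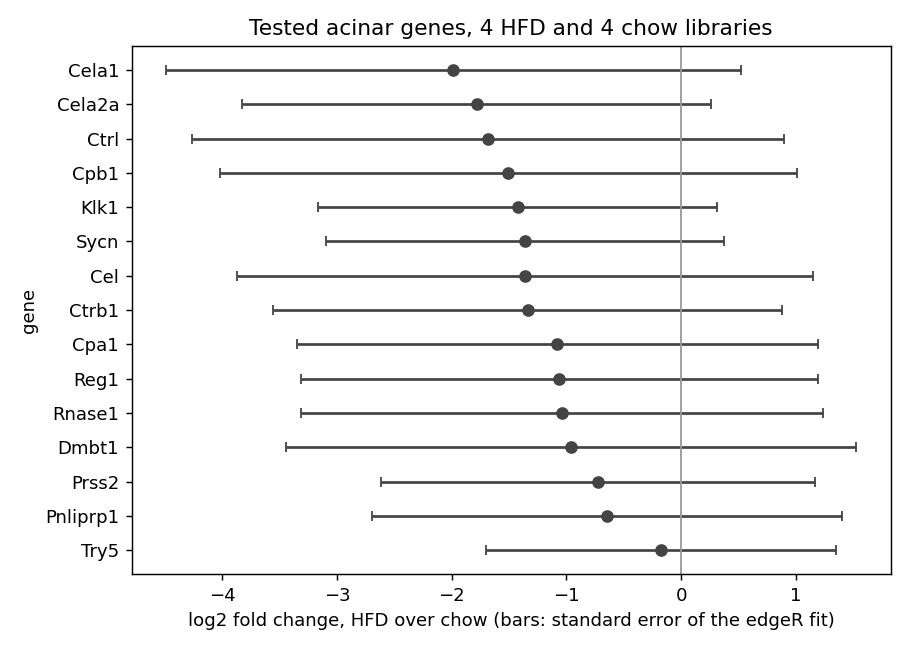
log2 fold change, HFD over chow, of the 15 acinar genes that passed the filter, from the edgeR fit over all genes (4 HFD and 4 chow libraries). Points are estimates and bars 1 standard error, derived from the estimate and the F statistic of the test. Every bar crosses 0, and the estimates run from -1.98 (Cela1) to -0.18 (Try5).

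The libraries of one diet differed widely from each other in these transcripts. The biological coefficient of variation of edgeR, the spread between libraries of a group beyond counting error relative to the mean, had a median of 2.09 over the 15 tested members and ran from 1.38 to 2.84. The median over all 10129 genes was 0.736, and 97.6% of genes had a value below the lowest of the members.

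Other acinar genes outside the 36 were read from a second list of 29 names, of which 27 gave a row of their own, and 12 of those had no count. Over all genes tested 0 of its 3 tested genes were called in edgeR, with 0 at an unadjusted p under 0.05, and 0 were called in DESeq2. The trypsin-family gene 2210010C04Rik had 37.1, 17.7, 372 and 12.2 CPM in HFD replicates 5 to 8, against 0.223, 6.82, 411 and 1164 CPM in chow replicates 1 to 4. Its 3 highest libraries were those of the summed members. In CPM, which are not per length, it exceeded the 5 trypsinogen members together in each library. They summed to 34.8, 8.44, 84.7 and 1.99 CPM in HFD and 0, 0.155, 75.5 and 145 CPM in chow. Its annotated exons are longer (2142 bases, against 815 in Prss2). Per kilobase, Prss2 alone was above it in HFD replicate 5, at 36.6 against 17.3. In HFD replicate 6 Prss2 and Try5 had 8.24 and 1.91, against 8.28. It was above Prss2 per kilobase in the remaining libraries. Counts of Prss1, Prss3, Try4 and Try5 are uncertain, as given above. Amylase is a major acinar product. Amy2a5 had 5.84 CPM in HFD replicate 7, against 38.5 and 1.87 CPM in chow replicates 3 and 4, while Amy2b reached 1.46 CPM in HFD replicate 7, against 7.02 CPM in chow replicate 4, and Amy2a2, Amy2a3 and Amy2a4 were listed at 0. All 50-base windows of those 3 transcripts also occur in another gene, as do 57.2% of those of Amy2a5, so these low counts are uncertain as a measure of amylase RNA. Gatm, an enzyme of creatine synthesis that is not confined to acinar cells, was at 229 to 335 CPM in HFD and 178 to 305 CPM in chow and did not follow the enzymes.

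Transcripts of other cell types did not rank the libraries as the acinar genes did. The 10 endocrine markers summed to 964, 1502, 929 and 1804 CPM in HFD replicates 5 to 8, against 456, 1735, 1048 and 1047 CPM in chow replicates 1 to 4. HFD replicate 8 and chow replicate 2 held the most endocrine RNA with 54.4 and 5.11 CPM of acinar RNA, while chow replicate 1 was lowest for both. The 10 duct markers summed to 14.7, 11.9, 17.9 and 0.997 CPM in HFD and 0, 3.87, 5.55 and 4.91 CPM in chow, with the defining genes Krt8, Sox9 and Cftr at 0 in every library. Most of that sum in HFD was Spp1, so it is not read there as a level of duct cell RNA. Spp1 had 14.5, 11.2, 13.8 and 0.598 CPM in HFD and 0, 3.10, 1.03 and 0 CPM in chow. Among the others, Epcam had 19 of its 22 counts in HFD replicate 7, Muc1 had 0 counts in HFD libraries, against 16 and 12 in chow replicates 3 and 4, and Krt7 had at most 2 counts in HFD libraries, against 5 and 9 in chow replicates 3 and 4. The 8 stellate and fibroblast markers summed to 389, 232, 206 and 6.98 CPM in HFD and 23.9, 1.86, 4.53 and 3.27 CPM in chow, so chow replicates 3 and 4 held little of them beside their acinar RNA. The 6 endothelial markers summed to 0.199 to 13.6 CPM in HFD and 0 to 7.59 CPM in chow, and the 4 mast cell and 4 red cell markers had no count. Their part in the acinar levels was not tested.

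**Figure D5:**
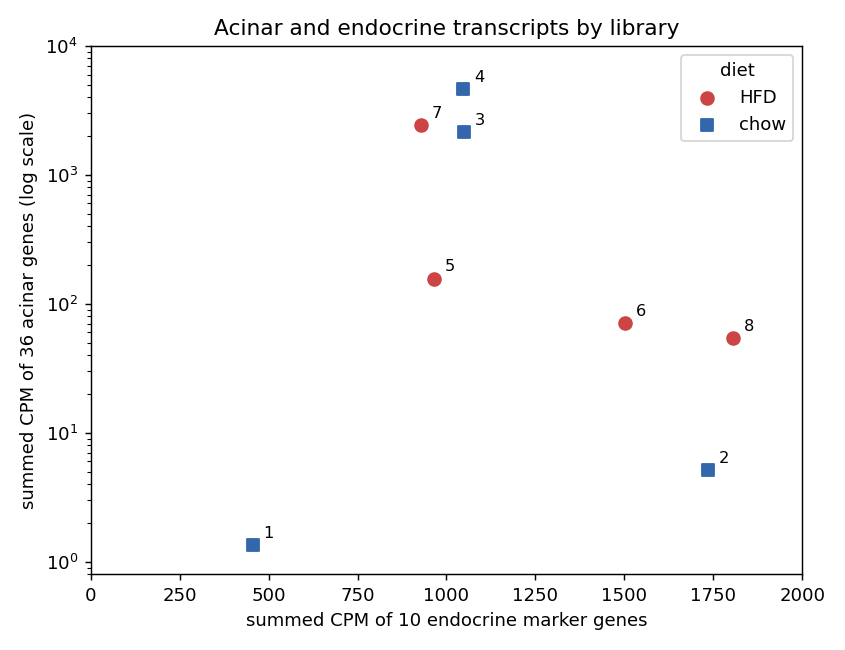
Summed CPM of the 36 acinar genes (vertical, log scale) against the summed CPM of 10 endocrine marker genes (horizontal, linear) in each library; red circles are HFD and blue squares chow, labelled by replicate. The 3 acinar-rich libraries lie between 929 and 1048 CPM of endocrine transcripts, and the 2 libraries with the most endocrine RNA, HFD replicate 8 and chow replicate 2, hold 54.4 and 5.11 CPM of acinar RNA.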

How the data were processed

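RNA was measured in 8 libraries, 4 from HFD and 4 from chow mice, grouped by their titles in the labels. The authors deposited 1 table of expected counts per gene, not scaled between libraries. FastQC, Trim Galore, STAR and the GRCm38 build are named, per the submitters' processing notes, while versions, counting program and annotation release were not given in the sources used here. Values that were not whole (7.66% to 8.32% of those above 0 per library) were rounded. All 28 pairs of libraries differed by more than sampling noise (chi-square per degree of freedom at least 36.3). Libraries pooled mice, and nothing else is known of their independence, so p-values measure the spread between these libraries.

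Members were matched by the table's own symbol column, other lists also by GENCODE M21 names. One name of the second list was not found and another repeated a row. The members and lists were chosen with earlier results of these data known. All genes passing filterByExpr were tested with edgeR (version 4.0.16; TMM, robust quasi-likelihood fit, diet as the only term, Benjamini-Hochberg at 0.05, two-sided) in R (version 4.3.3), after a test on simulated data. Alternatives were other scalings, filters of 0 or of 5 CPM in 4 libraries, each library left out, DESeq2 (version 1.42.0), limma-voom with quality weights (limma version 3.58.1), a fit that was not robust, and totals without acinar, hormone and mitochondrial genes. Members described in every library were the 12 with the highest mean CPM, the 5 tested with the smallest p and the 4 transcription factors, and a few more were chosen after their values were seen. From the second list the rule named its 5 most abundant genes, of which 1 is not reported here. Depth was 4288666 to 6391250 counts per library. Amplification from little RNA can move single genes between libraries.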

Additional observations from a re-analysis of the deposited data

Results flagged for a closer look

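Of 74 sets of 4 libraries looked at, 27 had 1 library far from the other 3. Its gap to the nearest neighbour was too large a part of the set's range by Dixon's critical value at 95%. For normally distributed values chance gives about 1 in 20. The CPM were unlogged and strongly skewed, which that rate does not allow for, so the 27 are not compared with it. In 21 of the 27 the library was HFD replicate 7. The ratio of gap to range was 0.957 for the summed members in HFD, 0.975 for the other endoproteases, 0.961 for the carboxypeptidases, 0.979 for lipases and cofactor, 0.987 for the ribonuclease, 0.946 for granule and membrane proteins and 0.929 for the regenerating proteins. For single genes in HFD it was 0.975 for Ctrb1, 0.956 for Cpb1, 0.987 for Rnase1, 0.911 for Reg1, 0.973 for Cela1, 0.941 for Cpa1, 0.995 for Pnlip, 0.972 for Cel, 0.965 for Ctrl, 0.969 for Dmbt1, 0.855 for Pnliprp1, 0.901 for Cela2a, 0.832 for Sycn and 0.962 for Nr5a2. The trypsinogen sum in HFD did not pass, with 34.8 CPM in HFD replicate 5 beside 84.7 CPM in HFD replicate 7. These sets share libraries and genes and are not independent.

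Bhlha15 stood apart in HFD replicate 5, with a ratio of 1.0. Where the other 3 libraries are at 0, as for Bhlha15 in HFD and Rbpjl and Nr5a2 in chow, any count gives 1.0, so the rate of 1 in 20 cannot apply at all. In chow the ratio was 0.843 for Dmbt1 (chow replicate 4), 1.0 for Rbpjl and 0.892 for the sum of the transcription factors (chow replicate 3), and 1.0 for Nr5a2 (chow replicate 1, where it rests on 3 counts). The stellate and fibroblast sum in chow had a ratio of 0.879, with chow replicate 1 at 23.9 CPM.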

How the results depend on the processing

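No paired analysis was possible because HFD and chow libraries share no replicate numbers. Members called stayed at 0 in every alternative run, as did the other acinar genes called. Genes called over all genes were 0 in edgeR and 45 with no filter, 28 in DESeq2, 1 in limma-voom, and 0 to 11 with each library left out (11 without HFD replicate 8). With no filter 33 members were tested and 4 had an unadjusted edgeR p under 0.05 (lowest adjusted p = 0.28), against 2079 of all 17971 genes. Such members were also 2 of 16 without HFD replicate 7, against 508 of all 10745 genes. They were 1 of 23 without chow replicate 1 (623 of all 10864) and 1 of 23 without chow replicate 2 (649 of all 10709). In limma-voom the log2 fold change, HFD over chow, turned positive for Ctrb1 (0.96), Cpb1 (0.17), Rnase1 (1.17), Reg1 (1.46), Cpa1 (0.28), Prss2 (1.90) and Pnliprp1 (0.97); the cause was not tested. With each library left out it ran from -4.14 to 0.30 for Rnase1, -3.90 to 0.26 for Cpa1, -5.32 to 1.49 for Dmbt1, -1.46 to 1.497 for Prss2, -2.71 to 0.0756 for Pnliprp1 and -3.57 to 0.0804 for Sycn, lowest without HFD replicate 7 and highest without chow replicate 4. The ratio of summed CPM, 0.401, ran from 0.0558 to 0.946 with each library left out. It was 0.399 to 0.433 under the other scalings and totals, and 0.373, 0.403 and 0.413 without members not restricted to acinar cells, without Ctrb1, and without the trypsin and elastase family. Counts of a few reads, shared sequence and 4 libraries per diet limit these values.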

Other observations

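Besides Gatm, the genes Dnase1 and Amy1 of the second list of acinar genes did not follow the digestive enzymes. Dnase1, a secreted deoxyribonuclease gene, had 0.393, 0.517, 0 and 61.4 CPM in HFD replicates 5 to 8, against 0.223, 4.03, 0 and 0.468 CPM in chow replicates 1 to 4, so most of its counts were in HFD replicate 8, where the 36 genes summed to 54.4 CPM. Its annotated exons overlap the antisense gene Gm15879 by 504 bases and Trap1 by 54 bases. Amy1, an amylase gene, had 21.6, 0, 0.209 and 0 CPM in HFD libraries and 0.446, 15.6, 0 and 0.702 CPM in chow libraries, and its exons share 1128 bases with Rnpc3 on the same strand. Serpini2, a serine protease inhibitor gene named after its values were seen, had 4.38 CPM in HFD replicate 7, against 3.70 and 12.2 CPM in chow replicates 3 and 4, and no count in the other libraries.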
